A study of Homo sapiens with 2 samples.

Results

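The cytochrome P450 genes were chosen by their symbols, as every gene row whose symbol reads CYP, a number, a letter and a number, without CYP51A1. POR, the reductase that feeds them electrons, was added. The rule found 54 P450 genes and POR, together 55 of 19927 gene rows, and itself used no measured value. It was, however, chosen with earlier results of these data known. By known substrate, 18 of the P450 genes act on drugs and other foreign compounds, 6 on bile acids and oxysterols, 14 on fatty acids and eicosanoids, 7 on vitamin D and retinoids and 6 on steroid hormones, while 3 have no settled role. The study sequenced polyadenylated RNA of Huh7, a permanent line grown from a human hepatocellular carcinoma, in 2 cultures kept in serum-containing medium. One culture carried a control hairpin (shControl, labelled WT by genotype) and the other a hairpin that targets PPIL1 (shPPIL1 here, in full shPPIL1#1, with the genotype PPIL1 knockdown), with no time after hairpin delivery given. PPIL1 is a prolyl isomerase of the spliceosome, and the design asks what its knockdown does to gene expression. With 1 library and 1 hairpin per group there is no replicate, no test between conditions and no p-value, and loss of PPIL1 cannot be told apart from any other action of this hairpin or from a difference between cultures.

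Cytochrome P450 enzymes are heme proteins that insert an oxygen atom into fatty, poorly soluble molecules. Most sit in the endoplasmic reticulum and draw electrons from POR, sometimes helped by cytochrome b5, whereas the mitochondrial members draw them from ferredoxin (FDX1) and its reductase (FDXR). In hepatocytes they clear drugs, turn cholesterol into bile acids and break down retinoic acid and fatty acids, and many are switched on by nuclear receptors or by the aryl hydrocarbon receptor when a substrate arrives. Liver tumour lines are known for low levels of many of them.

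The shControl library had 41015345 counted reads and the shPPIL1 library 41165401. Each ratio below is shPPIL1 over shControl after scaling of the library sizes, followed in parentheses by an exact 95% Clopper-Pearson interval, which covers counting error only. For equal reads of 25, 100 and 1000 in both libraries this interval reached 1.81-fold, 1.33-fold and 1.09-fold. "Higher" and "lower" mean that the interval excluded 1. Levels are compared between genes in FPKM, the authors' depth- and length-scaled read count. PPIL1 itself fell from 1505 to 104 reads, to a ratio of 0.0679 (0.0551 to 0.0829), in the direction of the labels. All 8 hepatocyte markers were detected, with a summed level of 6331 FPKM in shControl and 6698 FPKM in shPPIL1. Of other marker lists, 3 of 4 bile duct, 1 of 4 fibroblast, 1 of 3 endothelial, 2 of 3 macrophage and 0 of 3 lymphocyte markers reached 1 CPM (scaled reads per 1000000), with KRT7, COL1A2 and CD163 at 0. Their summed levels in shControl and shPPIL1 were 192 and 172 FPKM for bile duct, 1.84 and 2.12 for fibroblast, 1.58 and 1.34 for endothelial, 20.3 and 18.5 for macrophage and 0.428 and 0.493 for lymphocyte markers, and their part in the results was not tested. In bulk RNA, fewer cells of a type and less RNA per cell cannot be told apart.

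Of the 55 genes, 25 reached 1 CPM in at least 1 library, 19 had some reads but stayed under that level, and 11 had 0 reads in both libraries. Among the P450 genes of the rule, expression was carried by few. CYP27A1, CYP2B6 and CYP1A1 together made up 68.9% of the summed level (FPKM) of these genes in shControl and 66.3% in shPPIL1. CYP51A1, outside the rule, stood above each of them, at 231 FPKM in shControl and 203 in shPPIL1. In shControl CYP2B6 stood at 54.0 FPKM, CYP27A1 at 53.7 and CYP1A1 at 39.0, and POR at 47.6. CYP2S1 followed at 10.7 FPKM, then CYP4F12 at 7.85, CYP26A1 at 7.15, CYP39A1 at 7.09, CYP2R1 at 6.48, CYP3A5 at 4.56 and CYP20A1 at 4.28. The first 2, CYP2B6 and CYP27A1, and the run from CYP4F12 to CYP2R1 lay close together, and with 1 library no order within them can be given. Among the kept genes CYP1B1, CYP2C19, CYP2U1 and POR share exon bases with a gene on the opposite strand (478 bases in CYP2C19, with the pseudogene MTND4P19), and CYP27B1 and CYP4V2 with METTL1 and KLKB1 on the same strand. Whether counting used strand is not given, so some of their reads may belong to the other gene. In shPPIL1 CYP27A1 came first within the rule at 58.6 FPKM, and CYP26A1, at 11.7, stood above CYP2S1, at 10.0. The 14 kept P450 genes whose level is not given above lay between 0.124 (CYP2C19) and 3.30 FPKM (CYP26B1) in shControl.

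**Figure D1:**
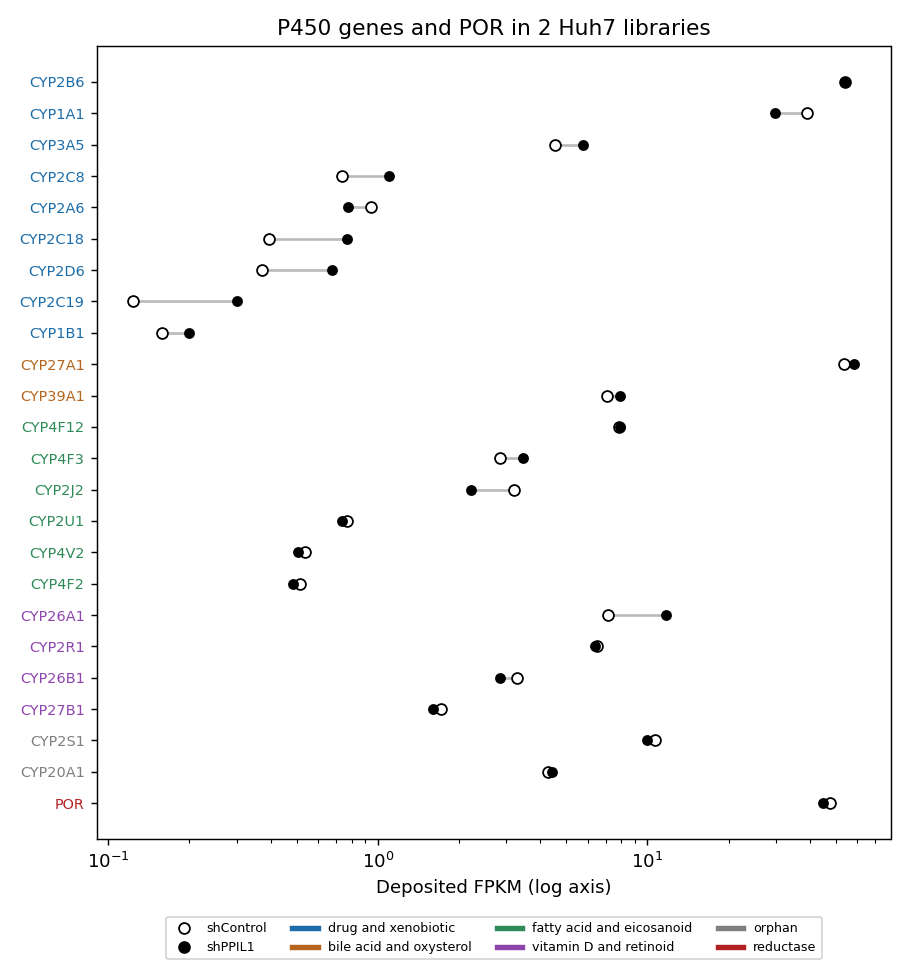
Deposited FPKM (log axis) of 24 of the 25 genes that reached 1 CPM, by role, with 1 open point for shControl and 1 filled point for shPPIL1 per gene and no error bars, since each group is 1 library. CYP2B6, CYP27A1, CYP1A1 and POR stand apart at 29.7 to 58.6 FPKM, and the longest grey lines at the upper levels belong to CYP1A1 and CYP26A1.

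Within the rule, the summed P450 level did not move beyond counting error. All 54 P450 genes together held 23129 reads in shControl and 23302 in shPPIL1, or 0.0564% and 0.0566% of the counted reads, a ratio of 0.990 (0.972 to 1.01). This sum leaves out the CYP51A1 row, which alone had more reads, 29043 and 25706, and was lower, at a ratio of 0.870 (0.855 to 0.884). That row shares most of its sequence with another annotated gene. Among the 25 kept members 8 were higher, 4 were lower and the interval of 13 included 1. The background was 24.6% higher and 26.4% lower among the 12540 genes kept in all, so the members' shares, 32.0% and 16.0%, rest on few genes and are not far from the background. The members' median log2 ratio was -0.02, beside 0.00 over all kept genes. At 1.5-fold or more, 4 members were higher (CYP26A1, CYP2C19, CYP2C18 and CYP2D6), against 2.02% of all kept genes, and 0 were lower, against 2.22%. That count depends on the level of the genes. CYP2C19, CYP2C18, CYP2D6 and CYP1B1 reached 1 CPM in shPPIL1 alone, so they had to come out with a ratio above 1. Among the 7 members with a mean under 2 CPM, 3 were at least 1.5-fold higher, and 15.1% of all kept genes at that level were. With 1 CPM required in both libraries, 5 members were higher, and CYP26A1 was the 1 member left at 1.5-fold or more.

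**Figure D2:**
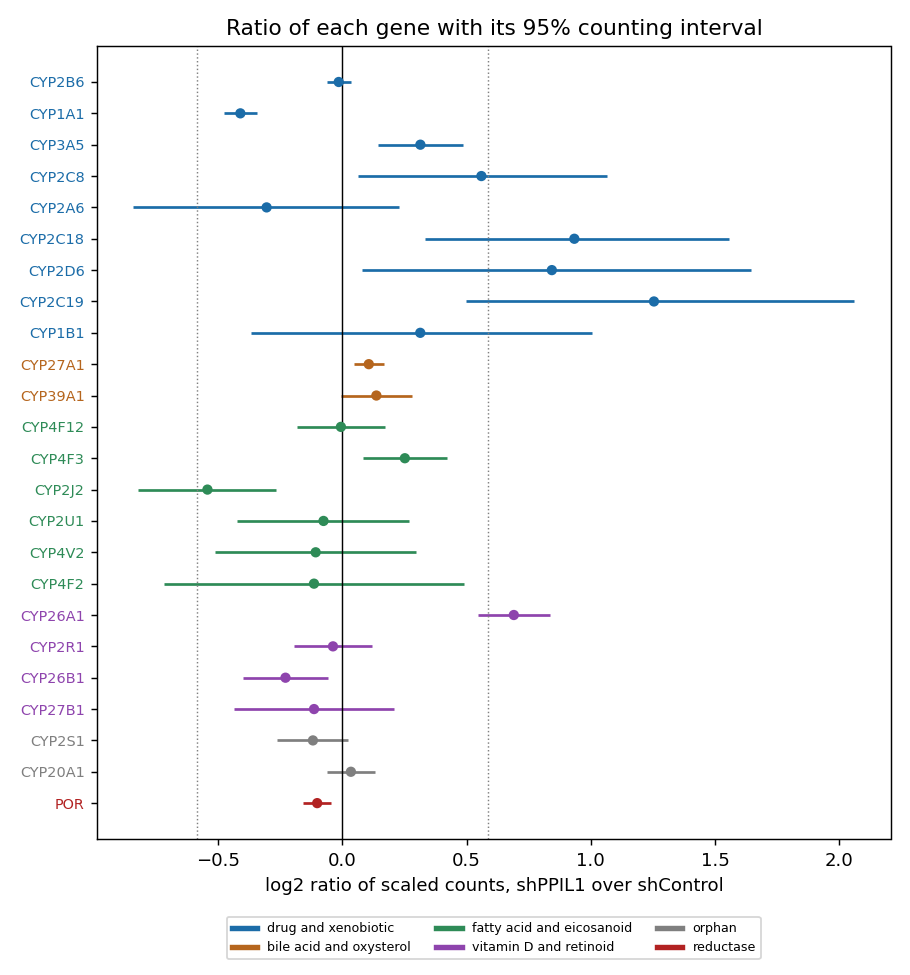
The log2 ratio of scaled counts (shPPIL1 over shControl) of 24 of the 25 kept genes with its 95% counting interval, coloured by role, with dotted lines at 1.5-fold in either direction. CYP26A1, CYP2C18, CYP2C19 and CYP2D6 lie beyond the right dotted line, the last 3 with wide intervals, and CYP2J2 and CYP1A1 are the lowest genes with an interval below 0.

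**Figure D3:**
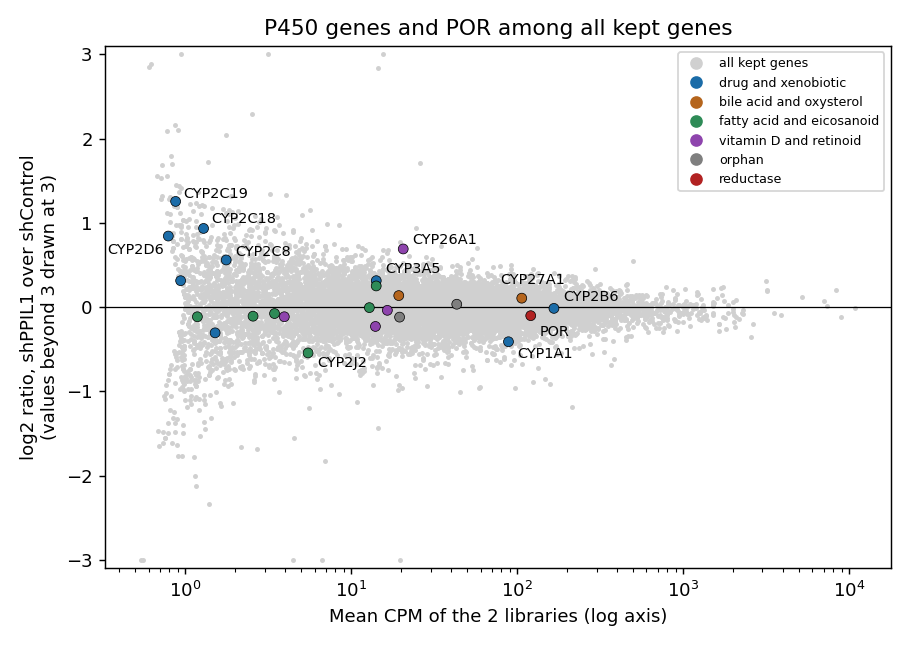
The log2 ratio against the mean CPM of both libraries (log axis) for all 12540 kept genes in grey and 24 of the 25 kept members in colour. The spread of the grey points is widest near 1 CPM, where CYP2C19, CYP2C18 and CYP2D6 lie, and narrow at the levels of CYP26A1 and CYP1A1.

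Among the enzymes of drugs and foreign compounds, CYP1A1 was lower, CYP2B6 did not move beyond counting error, and CYP3A5 and genes of the CYP2C cluster were higher. Of the 18 genes 10 were kept, of which 5 were higher, 1 was lower and 4 had an interval including 1. The shares over all kept genes were 24.6% higher and 26.4% lower. Of the higher genes CYP2C18, CYP2C19 and CYP2D6 reached 1 CPM in shPPIL1 alone. CYP1A1, which oxidises polycyclic aromatic hydrocarbons, had 4112 reads in shControl and 3147 in shPPIL1 (39.0 and 29.7 FPKM). It was 1.33-fold lower (1.27 to 1.39). Its share of the P450 reads within the rule was 17.8% (exact 95% interval 17.3 to 18.3%) in shControl and 13.5% (13.1 to 14.0%) in shPPIL1. CYP2B6, which metabolises bupropion and efavirenz, had 6804 and 6853 reads (54.0 and 54.2 FPKM), a ratio of 0.990 (0.957 to 1.02). CYP3A5 handles many drugs that CYP3A4 also oxidises. It had 513 reads in shControl and 649 in shPPIL1 (4.56 and 5.75 FPKM) and was 1.24-fold higher (1.11 to 1.40).

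CYP1A1 is the textbook target of the aryl hydrocarbon receptor, a ligand-activated factor that binds the dioxin response element. CYP1A1 lies on the minus strand of chromosome 15 from 74719542 to 74725528 (GRCh38). The 250 bases before its annotated start (RefSeq, GRCh38.p14, chr15:74725529-74725778, minus strand) are shown because this gene lost the most reads among the P450 genes of the rule. Capitals mark the letters GCGTG, which form the core of the dioxin response element, and TATAAA, the letters of the TATA box.
CYP1A1: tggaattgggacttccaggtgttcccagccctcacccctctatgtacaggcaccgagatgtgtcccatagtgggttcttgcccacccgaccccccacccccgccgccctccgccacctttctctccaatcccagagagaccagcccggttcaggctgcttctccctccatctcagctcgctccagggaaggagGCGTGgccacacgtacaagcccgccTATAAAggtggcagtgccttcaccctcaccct
The GCGTG letters begin 57 bases before the start, and whether they are part of a response element was not tested. Bases further upstream were not searched. Read on both strands, GCGTG stood in 8 of the 38 members with a promoter in the reference table and in 31.9% of all 27305 promoters of that length. CYP2J2, which was also lower, carries it, and so does CYP20A1, with a ratio of 1.02 (0.958 to 1.09). A match describes the letters and is no evidence of binding.

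Genes of the receptor's own pathway did not all move with CYP1A1. AHR, the receptor itself, had 6039 reads in shControl and 4475 in shPPIL1 and was 1.37-fold lower (1.32 to 1.43). The AHR row shares 32.7% of its 100-base windows with another annotated gene, so its reads may not be its own alone. ARNT, its partner on DNA, had 3010 and 3539 reads and was 1.16-fold higher (1.10 to 1.21). NQO1, a quinone reductase under the control of this receptor and of NRF2, was 1.14-fold lower, with 8897 and 7915 reads. Of 11 genes of this pathway, all kept, 1 was higher and 5 were lower, against 24.6% and 26.4% of all kept genes. Their median log2 ratio was -0.12. Other known targets had intervals that included 1. AHRR, the receptor's repressor, had 54 and 66 reads, a ratio of 1.20 (0.825 to 1.75). TIPARP, an ADP-ribosyltransferase, had 1828 and 1924 reads, a ratio of 1.03 (0.969 to 1.10). CYP1A2, the neighbour of CYP1A1, had 10 reads in shControl and 4 in shPPIL1, and CYP1B1 had 34 and 43, a ratio of 1.24 (0.774 to 2.01). CYP1B1 reached 1 CPM in shPPIL1 alone, so as a kept gene it had to come out with a ratio above 1.

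CYP2C18, CYP2C19 and CYP2C8 lie in a gene cluster on chromosome 10, between 94683729 and 95069497. CYP2C19 metabolises clopidogrel and proton pump inhibitors, and CYP2C8 paclitaxel. CYP2C18 had 36 reads in shControl and 70 in shPPIL1, a ratio of 1.91 (1.26 to 2.94). CYP2C19 had 21 and 51 reads, a ratio of 2.39 (1.41 to 4.18). CYP2C8 had 58 and 87 reads, a ratio of 1.47 (1.05 to 2.09). All 3 were higher, with fewer than 100 reads each in either library. CYP2C18 and CYP2C19 reached 1 CPM in shPPIL1 alone, which fixed their direction, so only CYP2C8 could have gone either way. The annotation also holds a coding gene, AL583836.1, that runs through both CYP2C18 and CYP2C19 and shares 36.2% of the windows of CYP2C18 and 80.5% of those of CYP2C19. Reads of these 2 rows cannot be told apart from reads of that transcript. None of the 3 genes exceeded 1.10 FPKM in either library.

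The remaining drug enzymes were near or under the detection filter. CYP2D6, which handles many antidepressants and opioids, had 23 reads in shControl and 42 in shPPIL1 (0.371 and 0.675 FPKM), a ratio of 1.79 (1.05 to 3.13), and 13.0% of its windows match its near-copy CYP2D7, which was not analysed here. CYP2A6, the nicotine oxidase, had 68 and 56 reads, a ratio of 0.809 (0.558 to 1.17). It shares 10.2% of its windows with CYP2A7, which had 11 and 25 reads, a ratio of 2.23 (1.06 to 5.03), and stayed under 1 CPM. The CYP2A genes summed to 79 and 82 reads, a ratio of 1.02 (0.740 to 1.41). CYP3A4, the main drug oxidase of adult liver, had 0 reads in both libraries, which allows up to 0.0731 CPM in shControl and 0.0729 in shPPIL1. CYP3A7, its fetal relative, had 13 and 10 reads, most of its sequence (74.5% of windows) being shared with the read-through row CYP3A7-CYP3A51P. CYP2E1, the ethanol oxidase, had 8 and 15 reads, on exons that overlap SYCE1 on the opposite strand. CYP3A43, CYP2A13 and CYP2F1 had at most 3.

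A short promoter sequence was shared by several of these low genes and CYP2B6. CAAAGTCCA, a binding site of the hepatocyte factor HNF4A, was searched on both strands of the 250 bases before each start. It stood in 5 of the 38 member promoters and in 0.293% of all 27305 promoters. The stretches around it are shown because genes that were higher (CYP2C8, and CYP2A7 under the filter) and genes that were not carry it, with the site in capitals (RefSeq, GRCh38.p14).
CYP2A6: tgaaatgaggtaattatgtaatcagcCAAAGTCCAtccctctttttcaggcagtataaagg
CYP2A7: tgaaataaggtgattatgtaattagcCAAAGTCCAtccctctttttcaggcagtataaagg
CYP2A13: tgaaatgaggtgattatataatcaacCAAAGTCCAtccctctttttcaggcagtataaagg
CYP2C8: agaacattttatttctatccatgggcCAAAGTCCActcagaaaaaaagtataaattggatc
CYP2B6: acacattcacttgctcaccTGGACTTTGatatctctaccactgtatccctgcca
They come from chr19:40850469-40850529, chr19:40882253-40882313 and chr10:95069516-95069576 on the minus strand (CYP2A6, CYP2A7 and CYP2C8) and from chr19:41088369-41088429 and chr19:40991032-40991085 on the plus strand (CYP2A13 and CYP2B6). In CYP2B6 the site is on the other strand and begins 231 bases before the start, while in CYP2C8 it begins at 53 and in the CYP2A genes at 56. These genes descend from a common ancestor, so the 5 matches are not independent. Of the genes that carry the site, CYP2C8 was higher, as was CYP2A7 on few reads and under the filter, while CYP2B6 and CYP2A6 had intervals including 1 and CYP2A13 had 0 and 1 reads. HNF4A had 19457 reads in shControl and 21038 in shPPIL1 and was 1.06-fold higher (1.04 to 1.08). The TATA box letters TATAAA stood in 14 of the 38 member promoters and in 11.1% of all promoters.

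The bile acid P450 enzymes that reached 1 CPM, CYP27A1 and CYP39A1, belong to the routes that run through oxysterols. CYP27A1 was slightly higher, and the interval of CYP39A1 just included 1. CYP27A1, the mitochondrial sterol hydroxylase of the acidic pathway, had 4172 reads in shControl and 4570 in shPPIL1 (53.7 and 58.6 FPKM) and was 1.08-fold higher (1.03 to 1.12). CYP39A1, which hydroxylates oxysterols in the endoplasmic reticulum, had 749 and 838 reads (7.09 and 7.90 FPKM), a ratio of 1.10 (0.995 to 1.21). CYP7A1 and CYP8B1 of the classical pathway were not detected. CYP7A1, its rate-limiting enzyme, and CYP8B1, which directs synthesis to cholic acid, had 0 reads in both libraries. Of the other bile acid and oxysterol enzymes, CYP7B1 had 4 reads in each library. CYP46A1, a cholesterol hydroxylase known from neurons, had 2 in shControl and 5 in shPPIL1.

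Genes of bile acid synthesis outside the P450 family moved in both directions. Of 14 listed, 12 were kept, 4 were higher and 5 lower, against 24.6% and 26.4% of all kept genes. Their median log2 ratio was -0.01. AKR1D1, the reductase that sets the bent ring of bile acids, had 1125 reads in shControl and 1581 in shPPIL1 and was 1.38-fold higher (1.28 to 1.49). BAAT, which joins bile acids to taurine or glycine, had 276 and 389 reads and was 1.38-fold higher (1.18 to 1.62). SLC27A2, an acyl-CoA synthetase, had 1386 and 1188 reads and was 1.19-fold lower. FGF19, the hormone that represses CYP7A1, had 676 and 505 reads and was 1.36-fold lower. Among the receptors that tune bile acid synthesis, NR0B2 (SHP) had 797 and 606 reads, a ratio of 0.747 (0.671 to 0.831). NR5A2 (LRH-1), which SHP inhibits, had 3536 and 4428 reads, a ratio of 1.23 (1.18 to 1.29). NR1H4 (FXR), the bile acid receptor, had 1535 and 1511 reads, a ratio of 0.967 (0.900 to 1.04).

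Of the 14 enzymes of fatty acids and eicosanoids 6 were kept, 1 of them higher, 1 lower and 4 with an interval including 1. The shares over all kept genes were 24.6% higher and 26.4% lower. CYP2J2, which makes epoxides from arachidonic acid, had 265 reads in shControl and 185 in shPPIL1 (3.19 and 2.22 FPKM). It was 1.46-fold lower (1.20 to 1.77), the lowest ratio of any kept member. CYP4F3, which hydroxylates leukotriene B4 at its end, had 525 and 636 reads (2.85 and 3.44 FPKM) and was 1.19-fold higher (1.06 to 1.34). CYP4F12, its neighbour on chromosome 19, had 524 and 531 reads (7.85 and 7.92 FPKM), a ratio of 0.996 (0.881 to 1.13). CYP4F2, the vitamin K and fatty acid hydroxylase, had 50 and 47 reads, a ratio of 0.924 (0.607 to 1.40). CYP2U1 had 144 and 139 reads and CYP4V2, the enzyme lost in Bietti crystalline dystrophy, 108 and 102, with ratios of 0.948 (0.746 to 1.21) and 0.928 (0.701 to 1.23). CYP4A11, the classical target of PPARA, had 0 reads in both libraries, as had CYP4A22, CYP4B1, CYP4F22 and CYP4Z1. CYP4F11 had 4 and 8 reads, and CYP4X1 and CYP4F8 at most 2. PPARA had 2333 reads in shControl and 2124 in shPPIL1 and was 1.12-fold lower (1.05 to 1.19).

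The retinoic acid hydroxylases moved in opposite directions. CYP26A1, which clears retinoic acid and is itself induced by it, had 640 reads in shControl and 1051 in shPPIL1 (7.15 and 11.7 FPKM). It was 1.61-fold higher (1.46 to 1.78), and its lower bound was the highest of all members. CYP26B1, the second enzyme of this kind, had 614 and 533 reads (3.30 and 2.85 FPKM) and was 1.17-fold lower (1.04 to 1.32). CYP26C1, which lies just before CYP26A1 on chromosome 10 (from 93060798 to 93069540, against 93073475 to 93077885), had 8 and 15 reads. The annotation holds a further transcript, AL358613.3, that runs through both genes and covers 30.2% of the windows of CYP26A1, so its reads cannot be told apart from those of CYP26A1 there. The kept vitamin D enzymes had intervals including 1. CYP2R1, the 25-hydroxylase, had 680 and 674 reads, a ratio of 0.974 (0.874 to 1.08). CYP27B1, the 1-alpha-hydroxylase, had 167 and 157, a ratio of 0.924 (0.738 to 1.16). CYP24A1, which breaks active vitamin D down, had 6 reads in shControl and 0 in shPPIL1, with an upper bound of the ratio at 0.834, and was under the filter. CYP27C1, a retinoid desaturase, had 10 and 4 reads.

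No P450 enzyme of steroid hormone synthesis reached 1 CPM. CYP11A1, which starts the pathway in mitochondria, had 24 reads in shControl and 25 in shPPIL1, and CYP19A1, the aromatase, had 22 and 17. CYP17A1 had 3 and 8 reads, on a locus that overlaps WBP1L on the opposite strand, and CYP11B1, CYP11B2 and CYP21A2 had 0. The 6 genes summed to 49 and 50 reads, a ratio of 1.00 (0.662 to 1.52). The 4 markers of steroid-making tissue (STAR, NR5A1, HSD3B2 and MC2R) were all under 1 CPM. Of 13 genes listed for steroid hormone synthesis outside the P450 family 9 were kept, 3 of them higher and 2 lower. The shares over all kept genes were 24.6% higher and 26.4% lower. SULT2A1, the steroid and bile acid sulfotransferase, had 3093 and 4451 reads and was 1.41-fold higher (1.35 to 1.48). SRD5A3, a polyprenol reductase, had 979 and 1170 reads and was 1.17-fold higher. HSD11B2, which inactivates cortisol, had 82 and 47 reads and was 1.78-fold lower, and HSD17B1, the estradiol-forming dehydrogenase, had 925 and 810 and was 1.16-fold lower.

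Both kept enzymes without a settled role had intervals including 1. CYP2S1 had 828 reads in shControl and 776 in shPPIL1, a ratio of 0.921 (0.834 to 1.02), and CYP20A1 had 1737 and 1810. CYP2W1, an enzyme known from colon tumours, had 27 and 21 reads and was the gene just outside the filter, at 0.663 CPM in shControl. Just inside it stood CYP2D6 and CYP1B1, at 1.01 and 1.04 CPM in shPPIL1.

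Set side by side, the roles differed in level more than in response. Drug enzymes summed to 102 FPKM in shControl and 95.1 in shPPIL1, and their summed reads had a ratio of 0.927 (0.903 to 0.951). Their median log2 ratio was 0.31, the opposite sign to the sum. CYP1A1 and CYP2B6 hold most of the reads in the sum. The median includes CYP2C18, CYP2C19, CYP2D6 and CYP1B1, which reached 1 CPM in shPPIL1 alone and so had to lie above 0. With 1 CPM required in both libraries that median was -0.12, over 6 genes. Bile acid enzymes summed to 60.8 and 66.6 FPKM, with a ratio of 1.08 (1.04 to 1.12) and a median of 0.12 over 2 kept genes. Vitamin D and retinoid enzymes summed to 18.8 and 22.7 FPKM, with a ratio of 1.13 (1.06 to 1.19), though their median was -0.08, because CYP26A1 alone was higher. Fatty acid enzymes summed to 15.8 and 15.4 FPKM, with a ratio of 0.998 (0.931 to 1.07) and a median of -0.09. Steroid hormone enzymes summed to 0.469 and 0.522 FPKM. Whether the roles differ from each other could not be tested with 1 library per group.

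**Figure D4:**
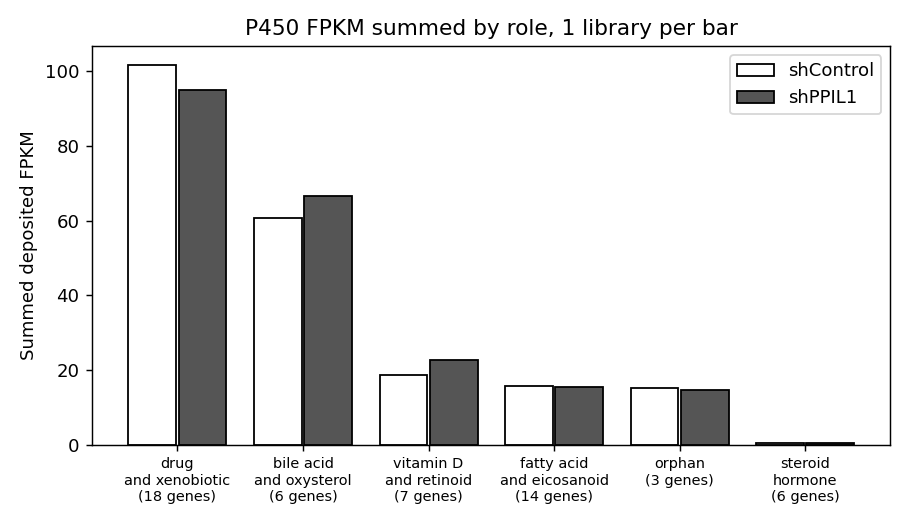
Deposited FPKM summed over the P450 genes of each role, with 1 open bar for the shControl library and 1 dark bar for the shPPIL1 library and no error bars. Drug enzymes fall from 102 to 95.1 FPKM, bile acid enzymes rise from 60.8 to 66.6, and steroid hormone enzymes stay under 0.6 in both libraries.

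The genes that supply electrons and heme changed by small factors. POR had 5079 reads in shControl and 4817 in shPPIL1 (47.6 and 44.9 FPKM) and was 1.07-fold lower (1.03 to 1.12). Of 9 electron transfer partners, 2 were higher and 4 lower, against 24.6% and 26.4% of all kept genes. Their median log2 ratio was 0.01. FDX1, the mitochondrial ferredoxin, had 951 and 769 reads and was 1.26-fold lower (1.14 to 1.39). Its reductase FDXR had 341 and 392 reads, a ratio of 1.13 (0.974 to 1.31). CYB5A and CYB5B, the cytochrome b5 genes, had 2268 and 2174 reads and 16921 and 16588 reads, 1.06-fold and 1.04-fold lower. The b5 reductases CYB5R3 and CYB5R1 were 1.10-fold and 1.09-fold higher. Of 12 genes of heme synthesis and breakdown 3 were higher and 1 lower, against 24.6% and 26.4% of all kept genes. ALAS1, the rate-limiting enzyme of heme synthesis in liver, had 8491 and 9049 reads and was 1.05-fold higher (1.02 to 1.08). FECH, which inserts the iron, was 1.11-fold lower. HMOX1, the inducible heme oxygenase, had 7192 and 9485 reads and was 1.30-fold higher (1.26 to 1.34), and BLVRB, a biliverdin reductase, 1.07-fold.

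The receptors that sense drugs were both at low levels. NR1I2 (PXR), which drives CYP3A and CYP2C genes, had 374 reads in shControl and 297 in shPPIL1 (3.32 and 2.63 FPKM) and was lower, at a ratio of 0.780 (0.668 to 0.911). NR1I3 (CAR), the main activator of CYP2B6, had 101 and 80 reads, a ratio of 0.778 (0.573 to 1.05). CYP3A5 and CYP2C8, which reached 1 CPM in both libraries, were higher in the library in which NR1I2 was lower. CYP2C18 and CYP2C19 were also higher, but they reached 1 CPM in shPPIL1 alone, which fixed their direction. Both rows also share sequence with another annotated gene. CYP2B6 had a ratio of 0.990 (0.957 to 1.02), and CYP3A7, under the filter, had 13 reads in shControl and 10 in shPPIL1. A link between NR1I2 and any of these genes was not tested. Over the whole list of 21 receptors and liver factors, 20 were kept, 10 were higher and 5 lower, with a median of 0.02. The shares over all kept genes were 24.6% higher and 26.4% lower. RXRA, the partner of both receptors, had 2556 and 3205 reads and was 1.23-fold higher (1.17 to 1.30). CYP51A1, the lanosterol demethylase of cholesterol synthesis and a P450 outside the rule, had 29043 and 25706 reads and was 1.15-fold lower. Those reads may not be its own alone, since its row shares sequence with another annotated gene.

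**Figure D5:**
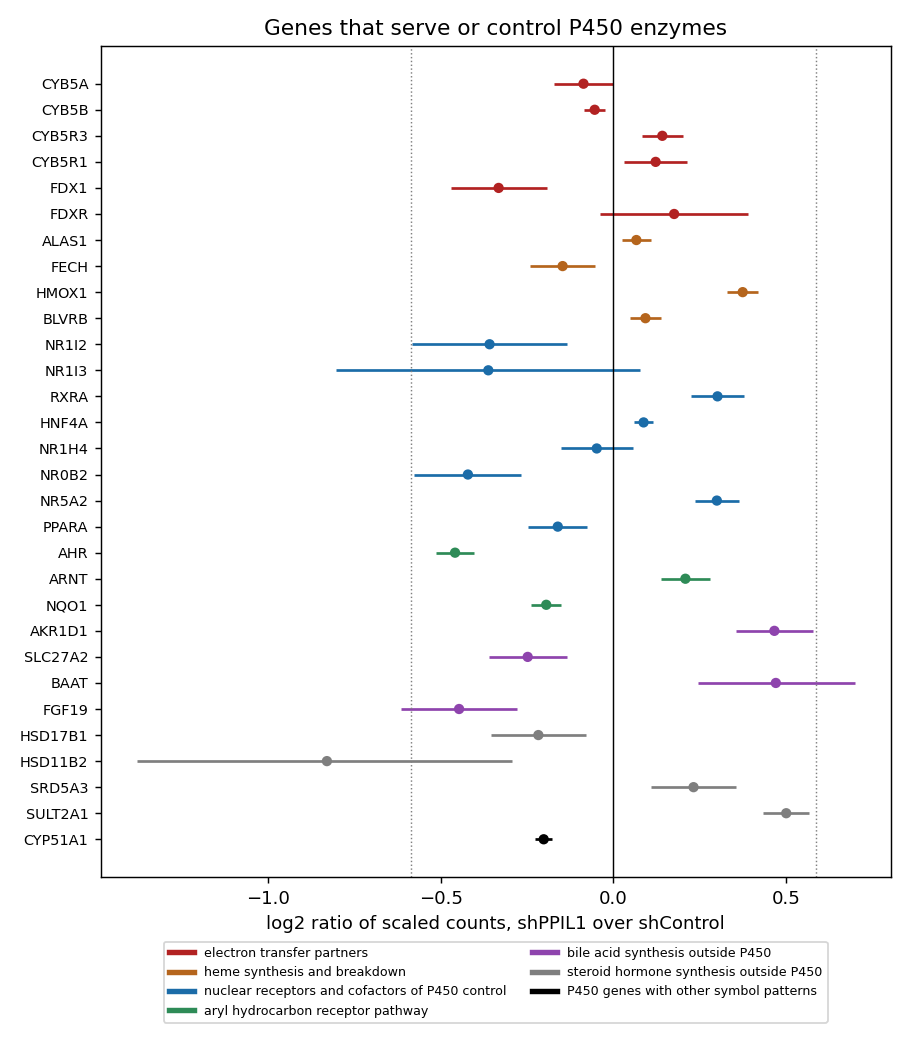
The log2 ratio (shPPIL1 over shControl) with its 95% counting interval for the named genes that serve or control P450 enzymes, coloured by list, with dotted lines at 1.5-fold. AHR, NR0B2, FGF19 and FDX1 lie to the left, AKR1D1, BAAT, SULT2A1 and HMOX1 to the right, and HSD11B2 is the 1 gene beyond a dotted line.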

How the data were processed

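Messenger RNA was sequenced from 2 Huh7 libraries, 1 per group. The authors deposited raw counts per gene for 19927 gene rows and FPKM values per gene for each library. The genome build is hg38, per the submitters' processing notes. Not given in the sources used here are the aligner, the counter, its annotation, its use of strand and its handling of multiply mapped reads. Columns were tied to libraries through the column names in the labels, and 7 further columns of counts, which match no label, were not used. In the deposited FPKM, 99.9% of genes above 0 had an implied length (count over library total and FPKM) that was whole within 0.001 bases.

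Library sizes were scaled with TMM factors (edgeR 4.0.16, R 4.3.3), 0.993 for shControl and 1.01 for shPPIL1. Genes with 1 CPM in at least 1 library were kept. Intervals came from SciPy 1.17.1, and the step was checked on simulated libraries. Reads amplified by PCR are not independent molecules. Shared sequence means that at least 20% of the 100-base windows, taken every 10 bases of the longest coding transcript (GENCODE 29), match a transcript of another gene. Positions and promoters came from RefSeq (GRCh38.p14, the same build). Every kept member but 1, which is not reported here, is named, with up to 2 higher and 2 lower genes of each list of partners, ranked by the interval bound nearest to 1, and a few fixed regulators. The members and lists were chosen with earlier results of these data known. Alternatives covered scaling, filter, FPKM pseudocounts, interval and shared sequence.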

Additional observations from a re-analysis of the deposited data

How the results depend on the processing

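No paired analysis was possible because each group has 1 library, and no library could be left out. The members called higher or lower kept their direction in every setting that kept them, and their call in every such setting with an interval. CYP39A1 came to exclude 1 when total counted reads replaced the TMM factors (1.11), which makes 2 higher bile acid enzymes. With log2(FPKM + 1), which shrinks low genes, the ratio of CYP2C19 was 1.16 and 1 member was at least 1.5-fold higher. Neither FPKM setting gives an interval, so it gave no count of higher or lower genes by interval. The counts follow the filter. At 5 CPM, with 14 members left, 4 were higher, 1 of them at least 1.5-fold, and the 3 drug enzymes left had 1 higher and a median of -0.0151. With no filter, CYP2A7 joined the higher genes, which makes 9 higher, 5 of them at least 1.5-fold, and 6 higher drug enzymes, whose median log2 ratio was 0.56 against 0.31 with the filter (0.13 with log2(FPKM + 1) and 0.15 without the members that share sequence). CYP24A1, at 0 reads in shPPIL1, joined the lower genes, which makes 1 member at least 1.5-fold lower and 2 lower vitamin D and retinoid enzymes. With 1 CPM in both libraries, a setting added after the data were seen, 5 members were higher, 1 at least 1.5-fold, and drug enzymes had 2 higher and a median of -0.12. Without CYP26A1, CYP2C18 and CYP2C19, the kept members that share sequence with another annotated gene, 5 members were higher, 1 of them (CYP2D6) at least 1.5-fold, with 3 drug and 0 vitamin D and retinoid enzymes higher. At 25 reads per library, about the level of CYP2D6 and CYP2C19 in shControl, the interval of equal reads reached 1.81-fold, and changes well under that size were not detectable.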

Other observations

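After CYP26A1 was seen to be higher, a list of 18 other genes of retinoid handling was looked up, so it was chosen with that value known. Of these genes 11 were kept, 2 were higher and 1 lower, against 24.6% and 26.4% of all kept genes. Their median log2 ratio was 0.00. RARB, a retinoic acid receptor known to be induced by its ligand, had 283 reads in shControl and 356 in shPPIL1 and was 1.24-fold higher (1.05 to 1.45). DHRS3, a retinal reductase also known as a retinoic acid target, had 2226 and 2256 reads, a ratio of 0.996 (0.939 to 1.06). CRABP2, which carries retinoic acid to the nucleus, had 49 and 30 reads and was 1.66-fold lower (1.03 to 2.71). It reached 1 CPM in shControl alone, so it had to come out with a ratio below 1. ALDH1A1, which makes retinoic acid from retinal, had 278995 and 297405 reads and was 1.05-fold higher (1.04 to 1.05).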
